A study of Oryza coarctata with 5 samples.

Results

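Among the 152367 assembled transcripts of *Porteresia* (*Oryza coarctata*), 150 were both well expressed and close to constant over 5 RNA-sequencing libraries, and their levels and spread are described here. They were chosen from the deposited RPKM values (read counts corrected for transcript length and for the total reads of each library). The rule took transcripts with RPKM of at least 50 in all 5 libraries, set aside the 100 with the highest mean, and kept the 150 with the smallest ratio of highest to lowest RPKM. The limit of RPKM 50 was passed by 1392 transcripts (0.914% of all), and 99 of these were among the 100 most abundant. The 150 were thus taken from 1293 candidates (11.6%), and 1242 other transcripts at the same limit serve for comparison. Since the ratio chose the members, their narrow range is a description and not a finding.

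Mature plants collected in nature were held in 450 mM NaCl, in 700 mM NaCl, submerged in water, submerged in 450 mM NaCl, or in water as the control, and each treatment gave 1 library. The species is a salt-tolerant wild relative of rice from tidal coasts, and all 5 libraries share that wild origin. With no replicate libraries, variation between like-treated plants cannot be judged, so treatments are compared by size alone, without tests. The labels do not name the tissue, the length of treatment or the number of plants behind a library.

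Reference transcripts serve as the yardstick in measurements of gene expression such as quantitative PCR, where a target is expressed relative to transcripts whose level should not move with the treatment. A useful reference sits near the level of its target and keeps its place across tissues and stresses, and several are usually averaged. In plants, genes for the cytoskeleton, ubiquitin pathway, translation and glycolysis have long been used this way, although stress can change many of them. The transcripts here carry assembly numbers without gene names, so none can be matched to those genes, no sequence is shown and the members are described by level, spread, length and library. In RNA from whole tissue, a change in the RNA per cell and a change in the make-up of cells cannot be told apart.

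Their mean RPKM over the 5 libraries had a median of 77.9 and ranged between 53.3 and 335, against a median of 110 and a range of 55.1 to 3896 for the 1242 others. The upper end of that range, and part of the gap in medians, comes from the 99 most abundant transcripts, which the rule barred. Without these 99, the other 1143 candidates had a median of 105 and a highest mean of 343. Of the 150 members, 113 had a mean RPKM under 100 and 7 had 200 or more. The ratio of highest to lowest RPKM, which the rule used, had a median of 1.14 among members and ran between 1.04 and 1.18, with 25 members under 1.1. Among the others the median ratio was 1.62 and the highest 29.5. Of these others, 96.5% reached a ratio of 1.2, 60.1% reached 1.5 and 30.3% reached 2, which no member can reach under the rule. The coefficient of variation (CV, standard deviation over mean of the 5 libraries) had a median of 5.23% in members and 19.0% in the others.

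**Figure D1:**
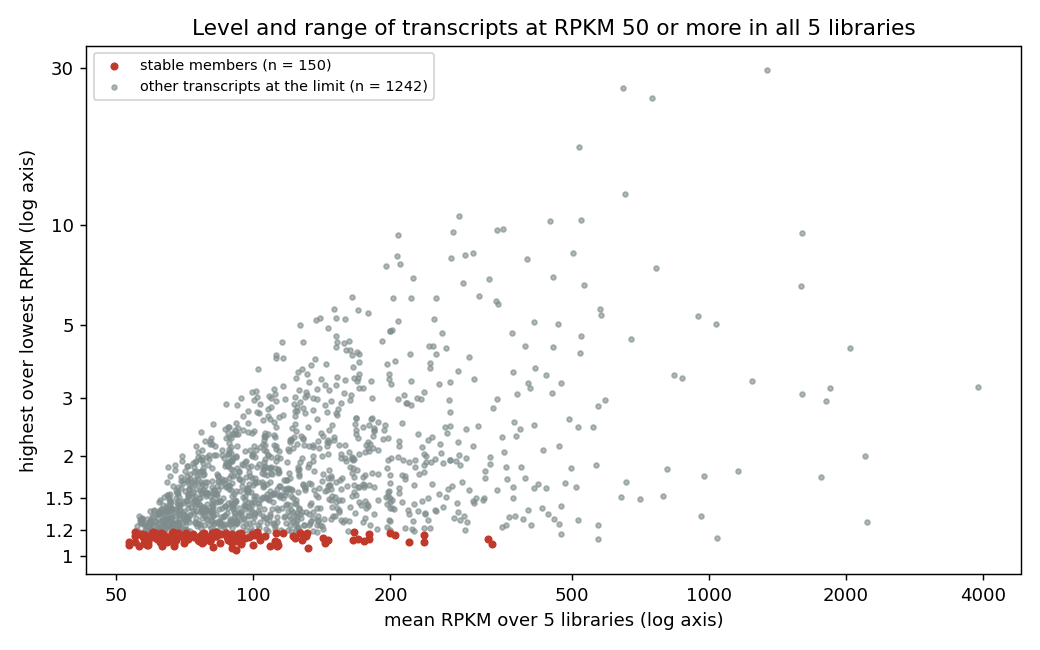
Ratio of highest to lowest RPKM (log axis) against mean RPKM over the 5 libraries (log axis) for each transcript at RPKM 50 or more in all 5, with the 150 members in red and the 1242 others in grey. Members fill the lowest band up to a ratio of 1.18 and thin out above a mean of 200. The upper edge of the cloud climbs with the mean, and at means near 50 the limit in each library caps the ratio.

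The limit itself also bounds the ratio that a transcript of low mean can have. A transcript with a mean just above 50 cannot fall far in any library without dropping below the limit. Among candidates with a mean RPKM of 50 to 75, 67 of 290 (23.1%) were members and the median ratio was 1.28, while at 200 or more 7 of 143 (4.90%) were members and the median ratio was 1.97. When the limit of 50 was set on the mean alone, leaving the lowest library free above 0, the median ratio was 1.69 over 1057 transcripts at 50 to 75 and 2.0 over 152 transcripts at 200 or more. The ratio was then still lower at lower levels, by a smaller margin, and highest at 150 to 200 (2.10). How much of the members' lower level comes from the limit was not tested.

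The transcript with the smallest ratio was Pc_TC033640, which stood at 91.6 RPKM at 450 mM NaCl, 90.1 at 700 mM, 91.6 under water, 91.7 under salt water (submergence in 450 mM NaCl) and 93.6 in the water control. This order of libraries is kept below, and levels are as deposited unless another scaling is named. Which library is highest or lowest can change with the scaling. Its ratio was 1.04, with a 95% counting interval of 1.02 to 1.06, and 4 of its levels lay within 2 RPKM of each other. The interval covers counting error only and does not allow for picking the highest and lowest library after the values were seen. Pc_TC033640 is a long transcript of 3824 nt, with 20126 to 27686 reads in each library. Next came Pc_TC007617, at 90.2, 92.6, 87.7, 88.1 and 89.5 RPKM (ratio 1.06), highest in 700 mM NaCl and lowest in submergence in water. Pc_TC003153 had 137, 131, 129, 130 and 130 RPKM, so that on the deposited scale only 450 mM NaCl stood apart from the other 4 libraries.

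The other members with the 8 smallest ratios differed in which library stood apart in the deposited values. Pc_TC022862 had 84.3, 82.3, 83.6, 79.3 and 79.2 RPKM, with the water control and submergence in salt low together. The 95% counting intervals of these low levels (76.7 to 81.7 and 77.1 to 81.5) overlapped that of 700 mM NaCl (79.7 to 84.8). Pc_TC034025 had 64.7, 65.1, 67.5, 68.2 and 69.2 RPKM, so both salt treatments of plants not submerged lay below the rest. In Pc_TC028154 the levels were 65.4, 61.1, 63.2, 63.8 and 61.5 RPKM, lowest in 700 mM NaCl and in the control. Here too the counting intervals of the low levels (59.4 to 62.8 and 59.8 to 63.2) overlapped that under water (61.7 to 64.7). Pc_TC024210 stood at 112, 104, 108, 108 and 112 RPKM, with 700 mM NaCl alone at the low end and 450 mM NaCl level with the control. Pc_TC028553 had 111, 114, 116, 108 and 115 RPKM and was lowest in submergence in salt. These 8 had ratios of 1.04 to 1.07, and their mean levels ran from 63.0 to 132 RPKM.

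A reference is most useful near the level of its target, so the members were also read as a ladder of 5 equal bins of mean RPKM, with 30 members each. The median ratio differed little between bins, at 1.14 in each of the lower 4 and 1.12 in the highest, which spans 109 to 335 RPKM. In the lowest bin, of 53.3 to 61.5 RPKM, the smallest ratio belonged to Pc_TC031634 with 57.7, 54.1, 54.0, 58.0 and 56.7 RPKM (ratio 1.07). Being 401 nt long, it rested on only 1268 to 1741 reads per library. Pc_TC032209 (2961 nt) came next in that bin, with 57.9, 58.1, 58.7, 62.0 and 57.4 RPKM. On the deposited scale only submergence in salt stood above the rest. In the middle bin, after Pc_TC022862, came Pc_TC017378 with 84.5, 79.6, 85.9, 86.9 and 85.2 RPKM, lowest in 700 mM NaCl. The smallest ratios of the remaining bins belonged to transcripts already given.

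At the ends of the ladder, Pc_TC007975 had the highest mean of the members, with 336, 347, 321, 326 and 345 RPKM from 47073 to 61113 reads per library and a ratio of 1.08. Both submerged libraries were lower than the others. Pc_TC012006 had the lowest mean, with 53.5, 50.7, 52.7, 55.9 and 53.9 RPKM and a ratio of 1.102, and in 700 mM NaCl it lay just above the limit. The last members inside the rule were Pc_TC026968 (182, 156, 169, 172 and 155 RPKM) and Pc_TC035937 (70.1, 71.1, 60.4, 64.2 and 67.0 RPKM), both with a ratio of 1.18. The first transcripts outside were Pc_TC082694 (150, 127, 130, 141 and 143 RPKM) and Pc_TC030923 (99.97, 84.8, 92.8, 93.2 and 94.4 RPKM), also at 1.18 after rounding. Counting intervals of the ratio overlap across this edge (1.15 to 1.21 for Pc_TC035937 and 1.14 to 1.22 for Pc_TC082694), so the edge separates no distinct classes.

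**Figure D2:**
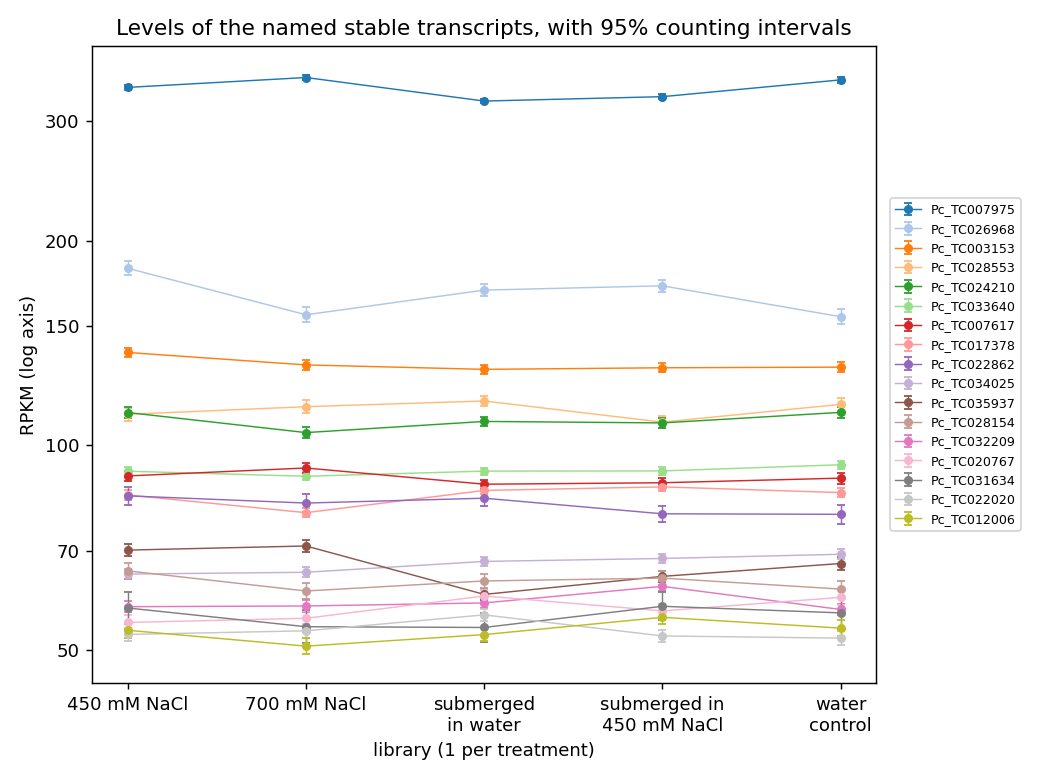
RPKM (log axis) of the 17 named members in the 5 libraries, 1 per treatment, with exact 95% Poisson intervals that cover counting error only. The lines stay nearly flat between 50.7 and 347 RPKM, and the widest swings belong to Pc_TC026968 and Pc_TC035937 at the edge of the rule.

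Only 3 of the 99 most abundant transcripts at the limit had a ratio within that of the 150, and they were set aside by the rule. These 3, picked after their values were seen, were Pc_TC003243 (604, 537, 544, 573 and 599 RPKM, ratio 1.12), Pc_TC038043 (1099, 971, 1010, 1093 and 1032 RPKM, ratio 1.13) and Pc_TC029791 (484, 427, 498, 497 and 460 RPKM, ratio 1.17). All 3 were lowest in 700 mM NaCl. The median ratio of the 99 was 2.45, and 58.6% of them reached 2.

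The small movements of the members were not spread evenly over the libraries, but which library was low depended on the scaling. With RPKM as deposited, 58 members were lowest at 700 mM NaCl and 56 under water, together 76.0%, while 15 were lowest at 450 mM NaCl, 11 under salt water and 10 in the control. The 1242 others were lowest in the first 2 of these libraries in 43.2% and 47.3%, together 90.5%. The control was the highest library for 43 members (28.7%), salt water for 41 and 450 mM NaCl for 37, with 19 highest under water and 10 at 700 mM NaCl. Among the others, the control was highest for 6.12% and submergence in water for 30.8%. The most frequent pairing in members, in 19 of the 150, was highest under salt water and lowest at 700 mM NaCl.

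Rescaling the libraries changed these counts. Scaled by the median of ratios over all transcripts, 129 members were highest at 450 mM NaCl and 97 were lowest under water. With those factors taken only over the 1392 transcripts at the limit, 71 were highest under water and 8 lowest there, and 60 were lowest under salt water. At equal sums of RPKM, 50 were lowest at 700 mM NaCl and 62 under water, close to the deposited values. The direction of the members' small shifts is therefore given only relative to the scaling named.

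Against the water control, the members' log2 ratios of deposited RPKM + 0.5 had medians of −0.0021 at 450 mM NaCl, −0.078 at 700 mM, −0.065 under water and −0.017 under salt water. Each of these signs turned under at least 1 of the median-of-ratios scalings. The medians over the 1242 others were 0.048, −0.096, −0.13 and 0.057. All 4 use the same control library, so their common part cannot be separated. At 1.1-fold, a limit chosen after the range was known, 33 members were lower at 700 mM NaCl than in the control and 0 were higher, beside 44.2% and 21.4% of the others. Under water 35 were lower and 2 higher, beside 49.6% and 34.4% of the others. At 450 mM NaCl the numbers were 9 lower and 5 higher (19.6% and 31.0% of the others), and under salt water 17 and 11 (29.0% and 41.1%). The rule used these contrasts, so the gap between members and others says nothing beyond the choice.

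The contrasts that leave out the control had the same small size. For 700 mM over 450 mM NaCl the members' median log2 ratio was −0.066, with 30 members lower and 2 higher at 1.1-fold (51.1% and 8.29% of the others). For salt water over 450 mM NaCl it was −0.0025, with 16 lower and 9 higher (36.9% and 39.5% of the others). For salt water over submergence in water it was 0.050, with 5 lower and 28 higher (23.9% and 50.6% of the others). No member (0 of 150) changed by 1.1-fold in opposite directions without and under submergence for salt, or without and with salt for submergence, where 1.93% and 2.66% of the others did. The rule bounds these contrasts too and leaves little room for such changes, so neither their small size nor this 0 says anything beyond the choice.

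**Figure D3:**
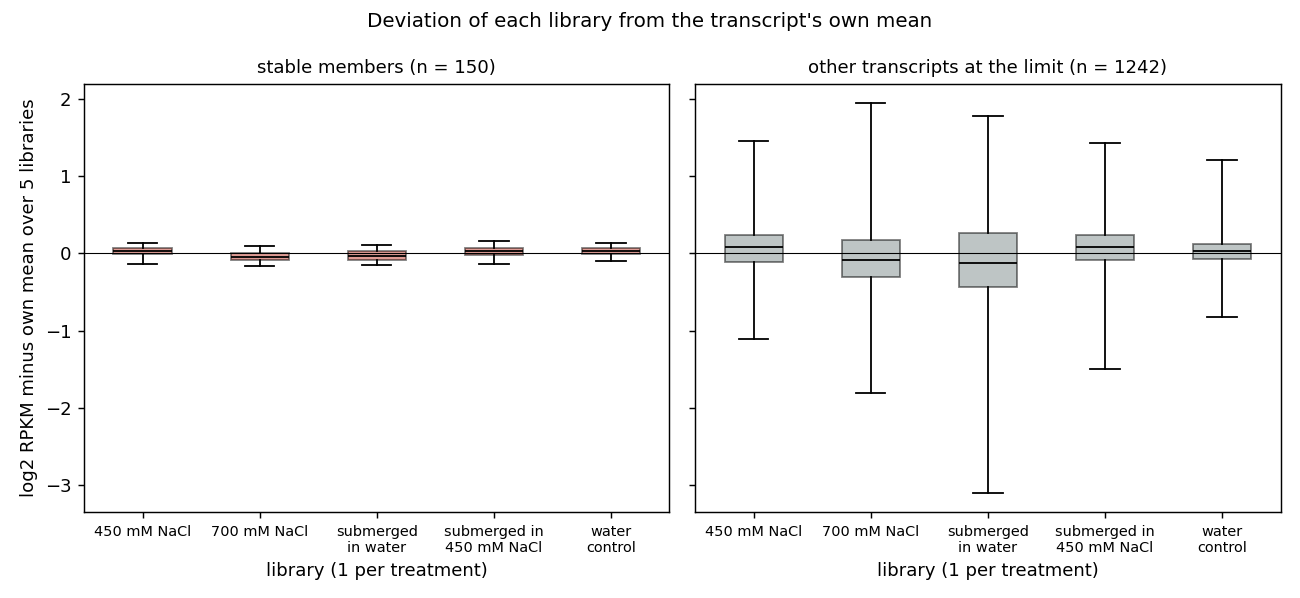
Log2 RPKM in each library minus the transcript's own mean over the 5, for the 150 members (left) and the 1242 others (right), with boxes for the quartiles, a line for the median and whiskers to the lowest and highest value. Values are on the deposited scale. Member values stay between −0.16 and 0.15, while the others reach −3.10 in submergence in water and 1.94 in 700 mM NaCl.

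How far such a choice holds in a library it has not seen was examined by leaving out each library in turn. The same rule was applied to the other 4, and the level of the 150 transcripts so chosen was then read in the library left out, relative to the geometric mean of the 4. On the deposited scale, the chosen transcripts moved most under water and at 700 mM NaCl, an order that turned with the scaling. On that scale and with 450 mM NaCl left out, 2 of 150 lay past 1.2-fold and 0 past 1.5-fold, beside 43.7% and 11.7% of the other transcripts at the limit in those 4. With salt water left out, 14 and 1 did, beside 42.5% and 10.3%. With the water control left out, 1 and 0 did, beside 17.6% and 3.70%. After median-of-ratios scaling over all transcripts, the count past 1.2-fold for 450 mM NaCl was far higher, at 24 higher and 1 lower.

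With 700 mM NaCl left out, 25 of 150 lay past 1.2-fold, all of them lower, and 0 past 1.5-fold, beside 59.2% and 26.2% of the others, again as deposited. With submergence in water left out, 40 lay past 1.2-fold (39 of them lower) and 6 past 1.5-fold, all 6 lower, beside 72.7% and 44.2% of the others. At 2-fold the chosen transcripts numbered 1 with submergence in water left out and 0 with any other library left out, beside 2.17% of the others for 450 mM NaCl, 8.40% for 700 mM, 22.0% for submergence in water, 2.08% for salt water and 0.483% for the control. In 700 mM NaCl the chosen transcripts had a median log2 deviation of −0.13, nearly that of the others (−0.14), and under water it was −0.15 against −0.27. With factors over the 1392 transcripts at the limit these medians of the chosen were 0.0014 and 0.039. Past 1.2-fold there were then 5 lower and 0 higher at 700 mM NaCl, and 11 lower and 13 higher under water. Under salt water there were 4 lower and 7 higher on that scale, so that 700 mM NaCl no longer moved more than salt water.

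The transcripts at 1 end of 3 of these comparisons, picked after the values were seen, show what 4 libraries can miss. Pc_TC025765 (2305 nt) had 166, 150.01, 63.9, 155 and 157 RPKM, so that submergence in water stood at 0.409-fold of the mean of the others. Pc_TC032639 (3179 nt) had 61.2, 58.5, 61.2, 93.2 and 53.6 RPKM, with salt water alone high, at 1.59-fold. Pc_TC082257 (563 nt) had 128, 90.9, 138, 123 and 125 RPKM, with 700 mM NaCl alone low, at 0.708-fold. None of these 3 is among the 150 members. Pc_TC025765 moved farthest of all, but the next 3 in size were also low under water, Pc_TC024546 at 0.583-fold, Pc_TC035930 at 0.598-fold and Pc_TC028804 at 0.616-fold.

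**Figure D4:**
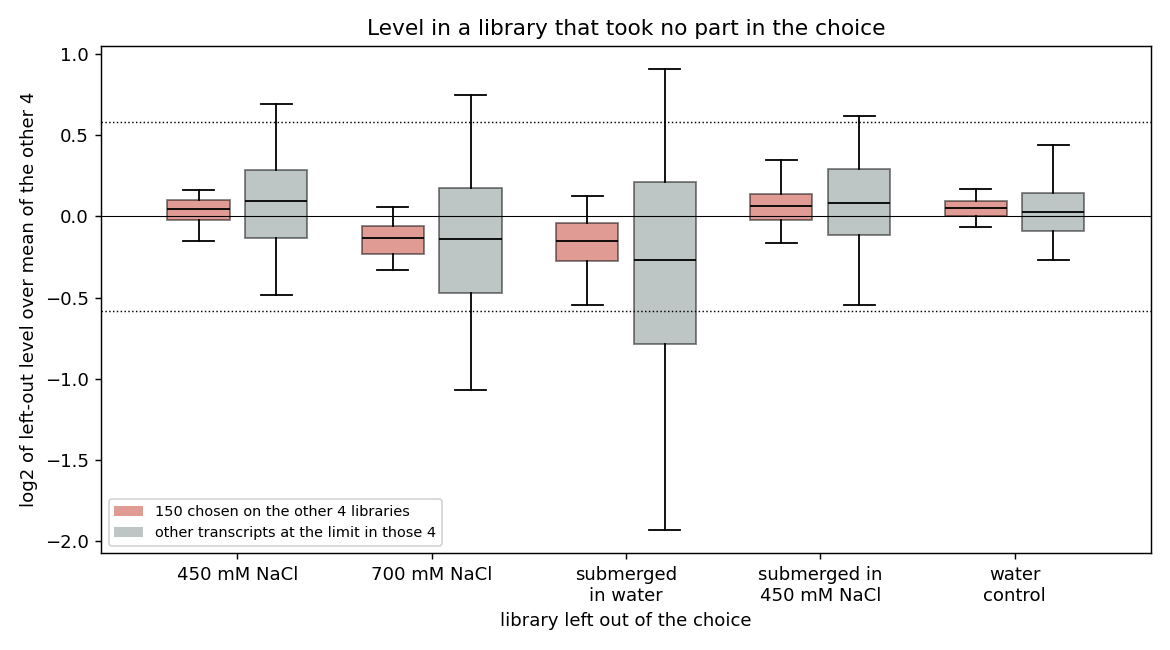
Log2 of the level in the library left out over the geometric mean of the other 4, for the 150 transcripts chosen on those 4 (red, left of each pair) and the other transcripts at the limit in them (grey), with boxes for the quartiles, a line for the median and whiskers at the 5th and 95th percentiles. Dotted lines mark 1.5-fold. The red boxes are narrower in all 5 libraries, and on the deposited scale used here both medians lie below 0 at 700 mM NaCl and under water, at −0.13 and −0.15 for the red boxes.

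The list of members changed with the libraries available. Of the 150, 126 were also chosen without the 450 mM NaCl library, 94 without 700 mM, 79 without submergence in water, 112 without salt water and 136 without the control. All 5 leave-outs kept 58 members, and 1 member was chosen in none of them. Of the 58, 45 were also among the 150 when RPKM was rescaled by the median of ratios over all transcripts or to equal sums. These 45 had mean levels of 53.3 to 335 RPKM with a median of 80.4, and they include each of the 8 transcripts with the smallest ratios. The leave-outs had to keep those 8, whose ratios were at most 1.07. A ratio over 4 libraries cannot exceed that over all 5, and the largest ratio admitted on 4 was 1.11 to 1.17. Any member with a ratio up to 1.11 thus had to be kept, unless it came among the most abundant transcripts set aside. For such members, being kept in all 5 leave-outs says nothing beyond the choice. They make up most of the 45, whose ratios had an upper quartile of 1.107 and a highest value of 1.14. With the factors over the transcripts at the limit as a further rescaling, 26 of the 45 remained, with mean levels of 53.3 to 237 RPKM. Of the 8, Pc_TC022862 (ratio 1.17 on that scale) and Pc_TC028553 (1.19) then dropped out and 6 remained. The deposited ratios of the 26 had an upper quartile of 1.104, so the leave-outs had to keep most of these too.

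A shift of a whole library enters every ratio, so the scaling bears on the list. Over the 127777 transcripts above 0 in all 5 libraries, the median-of-ratios factor relative to the control was −0.16 on the log2 scale at 450 mM NaCl, −0.10 at 700 mM, 0.017 under water and −0.028 under salt water. Over the 1392 transcripts at the limit it was 0.041, −0.092, −0.11 and 0.042. Over the 45824 transcripts with RPKM of at least 1 in all 5 libraries it was −0.093, −0.15, 0.029 and 0.038. The typical shift of transcripts at the limit thus had the opposite sign to that of all transcripts at 450 mM NaCl and in both submerged treatments. Against the transcripts at RPKM of at least 1, the sign was opposite at 450 mM NaCl and under water but the same under salt water. With the factors over all transcripts, the members had a median ratio of 1.2 and a highest of 1.33, and 75 of them reached 1.2. On that scale the members stood at a median log2 ratio of 0.15 between 450 mM NaCl and the control.

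The rank of a member depended on the scaling. By mean rank of the ratio over the deposited, median-of-ratios and equal-sum scalings, the first 5 were Pc_TC034025 (mean rank 9), Pc_TC033640 (15.3), Pc_TC028553 (17.0), Pc_TC020767 (17.7) and Pc_TC022020 (23.0). Pc_TC020767 (1729 nt) had 54.9, 55.7, 60.05, 57.1 and 59.8 RPKM, with a ratio of 1.09. Both salt treatments of plants not submerged were at its low end, and by the median of ratios, which raises those libraries, its ratio was 1.05 and its rank 2. Pc_TC022020 (2308 nt) had 52.7, 53.4, 56.3, 52.4 and 52.1 RPKM (ratio 1.08), with only submergence in water above the rest on the deposited scale. Pc_TC033640 ranked 1 as deposited and 44 by the median of ratios, and Pc_TC003153 ranked 3 and 114. Ranks are among the 1293 candidates. The mean rank leaves out the factors over the transcripts at the limit. With those, Pc_TC033640 ranked 61 and Pc_TC034025 140, while Pc_TC022020 (209), Pc_TC028553 (210) and Pc_TC020767 (257) fell outside the first 150. Of the 150 members, 42 were among the 150 under all 3 rescalings.

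Ratios between members do not depend on the scaling. For each member, the standard deviation over the 5 libraries of its log2 ratio to each other member was averaged, a measure used to rank reference genes in quantitative PCR. It had a median of 0.090 and ran from 0.067 to 0.13 among the members. For the ratios of the 1242 others to the members it had a median of 0.28 and a lowest value of 0.078. The 2 sets overlap, and Pc_TC030923, just outside the rule, had 0.0893, under the members' median. The members were chosen for a narrow range in these same libraries, so the gap in medians follows from the choice. The lowest value belonged to Pc_TC012178, which has a ratio of 1.08 in the deposited values. The geometric mean of several members moved less than most single ones. For the 3 members with the smallest ratios it was 104, 103, 101, 102 and 103 RPKM, and its highest over lowest value was 1.03. For all 150 it was 85.9, 82.2, 82.7, 85.6 and 86.3 RPKM (1.05), and for the 1242 others 130, 118, 114, 129 and 127 RPKM (1.14). These means were read in the libraries, and on the scale, that chose the members, so their distance from the others says nothing beyond the choice. None was read in a library left out of the choice.

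Most members spread more widely than counting error alone would give. From the recovered reads, counting alone would give members a median CV of 1.05%, while their observed median was 5.23%. The index of dispersion over the 5 libraries, which is 1 on average for counting error alone, had a median of 25.6 in members and 356 in the others. Of the 150, 130 had an index of 10 or more. For 2 members the index was within the 95th percentile that counting error alone gives (2.37), so that movement beyond counting was not detectable at this depth: Pc_TC031634, with 1.82, and Pc_TC048881, with 2.2. Pc_TC033640 had 3.86. Counting error was thus a small share of the spread of most members. The 150 members together held 2.57%, 2.48%, 2.49%, 2.58% and 2.61% of the reads.

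**Figure D5:**
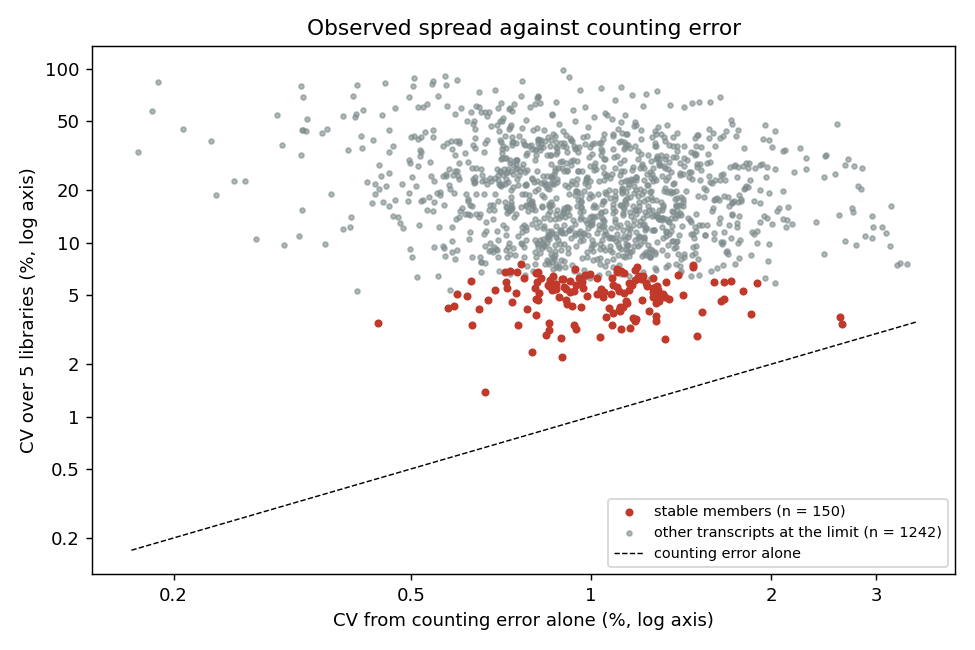
Observed CV over the 5 libraries (%, log axis) against the CV that counting error alone would give (%, log axis), for the 150 members in red and the 1242 others in grey. The dashed line marks equality, and each member lies above it, Pc_TC033640 at 1.38% against 0.665% and Pc_TC031634 at 3.43% against 2.63%.

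Length, which the rule did not use directly, differed between the sets. Members had a median length of 1752 nt (quartiles 1324 and 2305), and the others 1358 nt (861 and 1997). Among candidates under 500 nt, 5 of 105 (4.76%) were members, against 45 of 262 (17.2%) at 1500 to 2000 nt and 56 of 348 (16.1%) at 2000 nt or more. The difference had the same direction at both levels examined, but was smaller and rested on few members at the higher level. With a mean RPKM under 100, 80 of 316 candidates of 1500 nt or more (25.3%) were members and 33 of 323 shorter ones (10.2%). At 100 or more, 21 of 294 long ones (7.14%) and 16 of 360 shorter ones (4.44%) were members. Counting error was larger in the shorter ones, with a median CV of 1.40% against 0.950% in the long ones at the lower level, and its part in the difference was not tested.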

How the data were processed

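The authors filtered the reads with NGS QC Toolkit, mapped them to assembled *Porteresia* transcripts and calculated RPKM, per the labels and series text. The mapper, program versions, assembly details and the treatment of reads shared by near-identical copies were not given in the sources used here. In a polyploid such copies can share reads, so the level of a single transcript is less certain than its counting interval.

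The deposited RPKM values were used unscaled. Lengths, reads and read totals (56638113 to 78997383) were solved from the steps between RPKM values. All 1392 transcripts at the limit had a solution, with reads within 9.8e-05 of whole numbers, and the tolerance was 0.01. The solution and the rule were checked on simulated data. Exact 95% intervals for reads (Poisson) and ratios (Clopper-Pearson) cover counting error only. Those of ratios take the highest and lowest library as fixed, although both were picked from the values, so their coverage is not exactly 95%. Log2 ratios used a pseudocount of 0.5. Median-of-ratios factors came from transcripts above 0 in all 5 libraries.

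The members, lists and limits were chosen with earlier results of these data known. Named transcripts were the 8 with the smallest ratio, the 2 with the smallest ratio in each of 5 level bins, the 5 with the lowest mean rank over 3 scalings, the pairs at each side of the limit, and the highest and lowest by mean. Lists of common plant reference genes and of leaf markers could not be applied to numbered transcripts. Python 3.11.15, NumPy 2.4.6, pandas 2.3.3, SciPy 1.17.1 and Matplotlib 3.10.9 were used. Alternatives covered scaling, the RPKM limit, the measure of spread, the pseudocount, the 100 most abundant transcripts and each library.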

Additional observations from a re-analysis of the deposited data

How the results depend on the processing

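No paired analysis was possible because each treatment has 1 library. Of the 150 members, 136 were shared with the choice after scaling to equal sums, 147 with the most abundant kept in, 135 with the standard deviation of log2 RPKM and 150 with RPKM + 1. They shared 83 with median-of-ratios scaling and 91 with those factors taken over the transcripts at the limit, an alternative added after seeing the data. Other RPKM limits draw on other candidates: 40 were shared at 20, 30 at 100 and 17 without one, and the largest ratio of the 150, 1.18 as reported, was then 1.11, 1.47 and 1.09. Leaving out 1 library kept 79 to 136 members. The median log2 ratios to the control (450 mM, 700 mM, under water, under salt water) were 0.155, 0.025, −0.082 and 0.011 after median-of-ratios scaling, −0.020, −0.070, −0.076 and −0.0070 at equal sums, and −0.043, 0.014, 0.041 and −0.058 with factors over the limit set. Pseudocounts of 0.1 and 1 moved them by less than counting error.

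Counts past 1.5-fold in a left-out library also moved. For submergence in water, 6 as reported, they were 3 after median-of-ratios scaling, 10 at equal sums and 22 at a limit of 100. For submergence in salt, 1 as reported, they were 2 at equal sums and with factors over the limit set, 0 at a limit of 20 and 3 at 100. The count was 4 for 700 mM NaCl at a limit of 100, and 1 for 450 mM NaCl at a limit of 20, each 0 as reported. For the water control the count was 0 under each of these alternatives. The number of others past 2-fold, 376 as reported, was 1217 of 4750 (25.6%) at a limit of 20 and 117 of 258 (45.3%) at 100. Depth limited few values, since the fewest reads of a member in any library were 1268. The spread between plants was not measured.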
